A study of Rattus norvegicus with 6 samples.

Results

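Methylation of mitochondrial CpGs was examined in whole-genome bisulfite sequencing (WGBS) of rat hippocampus. All positions of the mitochondrial chromosome (chrM) that were listed for all 6 rats were taken, with no selection by methylation level. This gave 300 CpGs, out of 307 chrM positions listed for any rat and out of 12035442 CpGs of the whole genome listed for all 6. The 3 iron-sufficient rats were pups of dams fed 200 ppm iron throughout. The 3 iron-deficient rats were pups of dams fed 4 ppm iron from gestational day 2 to postnatal day 7 and 200 ppm iron afterwards. All were Sprague-Dawley rats, and the study's methods state that pregnant CD1 Sprague-Dawley dams were bought from Charles River. Hippocampi were dissected at postnatal day 15. The dams of the iron-deficient pups had then been on the higher-iron diet since postnatal day 7. The study states, citing other publications, that this diet nevertheless left the hippocampus iron-deficient at postnatal day 15. The sources used here give no iron measurement of these 6 hippocampi. The study describes the 3 samples of each group as biological replicates. The sources used here do not give the litter or sex of the pups.

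Mitochondrial DNA is a small circle that is present in many copies per cell and is not packed on histones. It encodes subunits of the respiratory chain together with the ribosomal and transfer RNAs that translate them, and several respiratory complexes carry iron in heme groups or iron-sulfur clusters. Nuclear DNA of the brain is methylated at most CpGs outside CpG islands. Whether mammalian mitochondrial DNA carries CpG methylation at more than trace levels is debated, since bisulfite reads a cytosine that failed to convert in the same way as a methylated one. Stretches of mitochondrial DNA have also been copied into the nuclear genome during evolution, and the sources used here do not say how reads that match both were placed. The whole hippocampus was sequenced, so cell types are mixed and a change in their shares and a change within cells cannot be told apart.

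For each CpG the methylation level is the percentage of its reads that were read as methylated, and the coverage is the number of its reads. The sources used here do not give the conversion rate of unmethylated cytosines, and the levels therefore include any cytosines that escaped conversion. Coverage summed over all listed CpGs, which counts a read once for each CpG it spans, was between 432692526 and 780127386 per sample, and mean coverage of autosomal CpGs was between 24.9 and 47.5. The libraries had 100-base reads that were either paired or single, and the format of each sample is not stated. No annotation or sequence of the rat build used (rn4) was at hand, so positions are given as the authors list them (chrM, rn4) and are not assigned to genes. The sources used here do not state whether these begin at 0 or 1.

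The 300 CpGs ran from position 133 to position 16229 with a median distance of 33.0 nucleotides between neighbours. The widest stretches without a listed CpG were 567 nucleotides between positions 11438 and 12005 and 294 nucleotides between positions 1550 and 1844. The 7 positions that were missing for at least 1 rat lay between 1778 and 3885 and had a coverage of at most 51, and 6 of them had no methylated read. Mitochondrial CpGs were covered far more deeply than nuclear ones. In the iron-sufficient rats 1, 2 and 3 the mean coverage of the 300 CpGs was 4282, 5907 and 6712 reads, and in the iron-deficient rats 1, 2 and 3 it was 5808, 7015 and 5034 reads. Of the 300 CpGs, 297 had a coverage of at least 10 in every rat, 289 of at least 100 and 259 of at least 1000. The results below are for the 297 unless stated otherwise.

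The mitochondrial CpGs were read as methylated at a low level in every rat. With the reads of the 297 CpGs summed, the level was 3.80%, 4.15% and 4.04% in the iron-sufficient rats 1, 2 and 3. It was 3.52%, 4.06% and 4.88% in the iron-deficient rats 1, 2 and 3. The groups overlapped, and both the lowest and the highest of the 6 values belonged to iron-deficient rats. From a summed coverage of 1284502 to 2104223 per rat, the widest 95% Wilson interval was 4.85% to 4.92%, in iron-deficient rat 3. Such intervals hold the counting error alone and not the variation between rats. They are too narrow even for that error, because a read that spans several CpGs is counted at each. Any PCR copies left among the reads would also make them too narrow. Group means were 4.00% ± 0.183 for iron sufficiency and 4.15% ± 0.687 for iron deficiency (SD, n = 3 each). They differed by 0.153 percentage points, less than the SD of either group (exact permutation test, two-sided, p = 0.800, with 0.1 the lowest p possible for 3 against 3). The difference was 0.367 percentage points for the unweighted mean over CpGs and 0.0916 for the median (exact permutation p = 0.800 each). Without iron-deficient rat 3 it changed direction, to -0.212 percentage points.

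The level was compared with the nuclear genome of the same library. The 4686636 nuclear CpGs that reached a coverage of 10 in every rat, summed in the same way, had a level of 61.4%, 62.6% and 62.3% in the iron-sufficient rats 1, 2 and 3 and of 61.4%, 63.6% and 63.4% in the iron-deficient rats 1, 2 and 3. The mitochondrial level was lower in 6 of 6 rats, with a mean difference of -58.4 percentage points (mitochondrial minus nuclear, two-sided exact sign-flip test over samples, p = 0.0312, the smallest that 6 samples can give). Of the 297 single CpGs, 296 (99.7%) were below the nuclear level in every rat, and the exception was position 14188.

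A closer comparison was made with nuclear tiles of 1000 nucleotides that held at least 50 covered CpGs. CpG-dense stretches of this kind, known as CpG islands where they mark promoters, are mostly unmethylated. There were 3339 such tiles, chosen by their number of CpGs and not by their level. The median tile had a level of 2.59%, 2.36% and 2.51% in the iron-sufficient rats 1, 2 and 3 and of 2.52%, 2.40% and 3.08% in the iron-deficient rats 1, 2 and 3. In 6 of 6 rats the mitochondrial level was higher than the median tile, on average by 1.50 percentage points (two-sided exact sign-flip test, p = 0.0312). It was higher by 3.04 percentage points than the tile at the 10th percentile. These comparisons set a level summed over reads against 1 tile of a ranking, and a summed level of all tiles was not computed. The median over the 297 CpGs was 3.40% to 4.97% per rat, also above the median tile, which was 2.36% to 3.08%. Of the 297 CpGs, 175 exceeded the median tile in every rat. The 334 tiles with the lowest levels, 10% of the tiles, chosen by the level itself and given only as a description, had a mean of 1.18% to 1.99% per rat, and 258 mitochondrial CpGs exceeded that value in every rat.

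**Figure D1:**
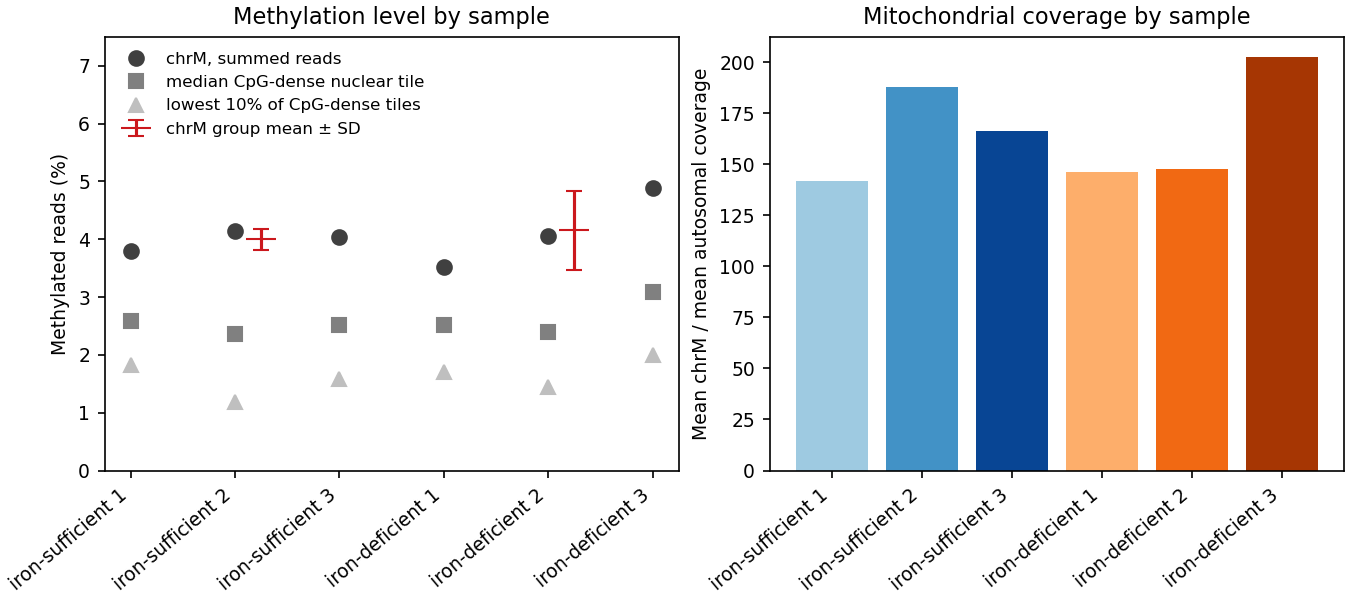
Left, percentage of reads read as methylated in each of the 6 rats for the summed mitochondrial CpGs (circles), the median CpG-dense nuclear tile (squares) and the lowest 10% of these tiles (triangles), with the group mean ± SD (n = 3) of the mitochondrial level in red. Right, mean mitochondrial coverage divided by mean autosomal coverage, 1 bar per rat. The circles lie above the squares in 6 of 6 rats, and the groups overlap in both panels.

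Iron-deficient rat 3, which had the highest mitochondrial level, also had the highest level in the median CpG-dense tile and in the lowest 10% of tiles. Over the 6 rats, the correlation of the mitochondrial level with that of the lowest 10% of tiles was not distinguishable from 0 (Pearson's r = 0.243, exact permutation p = 0.671, Spearman's rho = -0.0857, exact permutation p = 0.919). The Benjamini-Hochberg adjusted values over the 2 relations that were computed were the same. Without the 2 rats farthest from the median of the tiles, iron-sufficient rat 2 and iron-deficient rat 3, r was -0.654. The relation to the median tile was not computed, and 6 rats are too few to exclude a relation. The part of unconverted cytosines in the mitochondrial level was not tested.

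Coverage of mitochondrial relative to autosomal CpGs was used to ask whether the amount of mitochondrial DNA in the libraries differed with iron status. The ratio of the mean coverages was 141.9, 188.0 and 166.2 in the iron-sufficient rats 1, 2 and 3 and 146.2, 147.8 and 202.3 in the iron-deficient rats 1, 2 and 3. The groups overlapped and had almost the same mean, 165.4 ± 23.0 and 165.4 ± 31.9 (SD, n = 3 each). The difference of the log2 ratios was -0.00709 (iron-deficient minus iron-sufficient, two-sided exact permutation test, p = 1.00), and leaving out 1 rat at a time moved it between -0.161 and 0.0902. Mitochondrial CpGs took 0.243% to 0.365% of all coverage.

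The 2 rats with the largest coverage ratios, iron-deficient rat 3 and iron-sufficient rat 2, were also the 2 with the highest summed mitochondrial levels. Over the 6 rats the summed level and the ratio gave Pearson's r = 0.861 (exact permutation p = 0.00833, adjusted p = 0.0167) and Spearman's rho = 0.886 (exact permutation p = 0.0333, adjusted p = 0.0667). Both quantities come from the same libraries. Without these 2 rats r was 0.531. Leaving them out also narrows the range of the ratio, so this value cannot show whether the relation rests on them. The unweighted mean over CpGs was 5.02%, 4.78% and 5.62% in the iron-sufficient rats 1, 2 and 3. It was 4.24%, 5.48% and 6.81% in the iron-deficient rats 1, 2 and 3. By this summary only iron-deficient rat 1 was below iron-sufficient rat 2. The relation of the ratio to the unweighted mean was not computed.

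Along the chromosome most CpGs lay in a narrow band. The median over all 300 CpGs of the mean level of the 6 rats was 4.09% (quartiles 3.48% and 5.04%), and 244 CpGs (81.3%) were between 2% and 6%. Above 10% there were 25 CpGs and above 20% there were 5. In windows of 1000 nucleotides, the lowest level was in the window from 3000 to 3999 (25 CpGs, summed over their reads), with 2.40%, 3.41% and 2.33% in the iron-sufficient rats 1, 2 and 3 and 2.53%, 2.57% and 3.50% in the iron-deficient rats 1, 2 and 3. The highest level was in the window from 1000 to 1999 (15 CpGs), with 8.51%, 6.40% and 9.54% in the iron-sufficient rats 1, 2 and 3 and 3.89%, 12.9% and 9.88% in the iron-deficient rats 1, 2 and 3. The high window was thus above the low window in every rat. Its mean coverage was 868 reads, compared with 6258 in the low window.

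**Figure D2:**
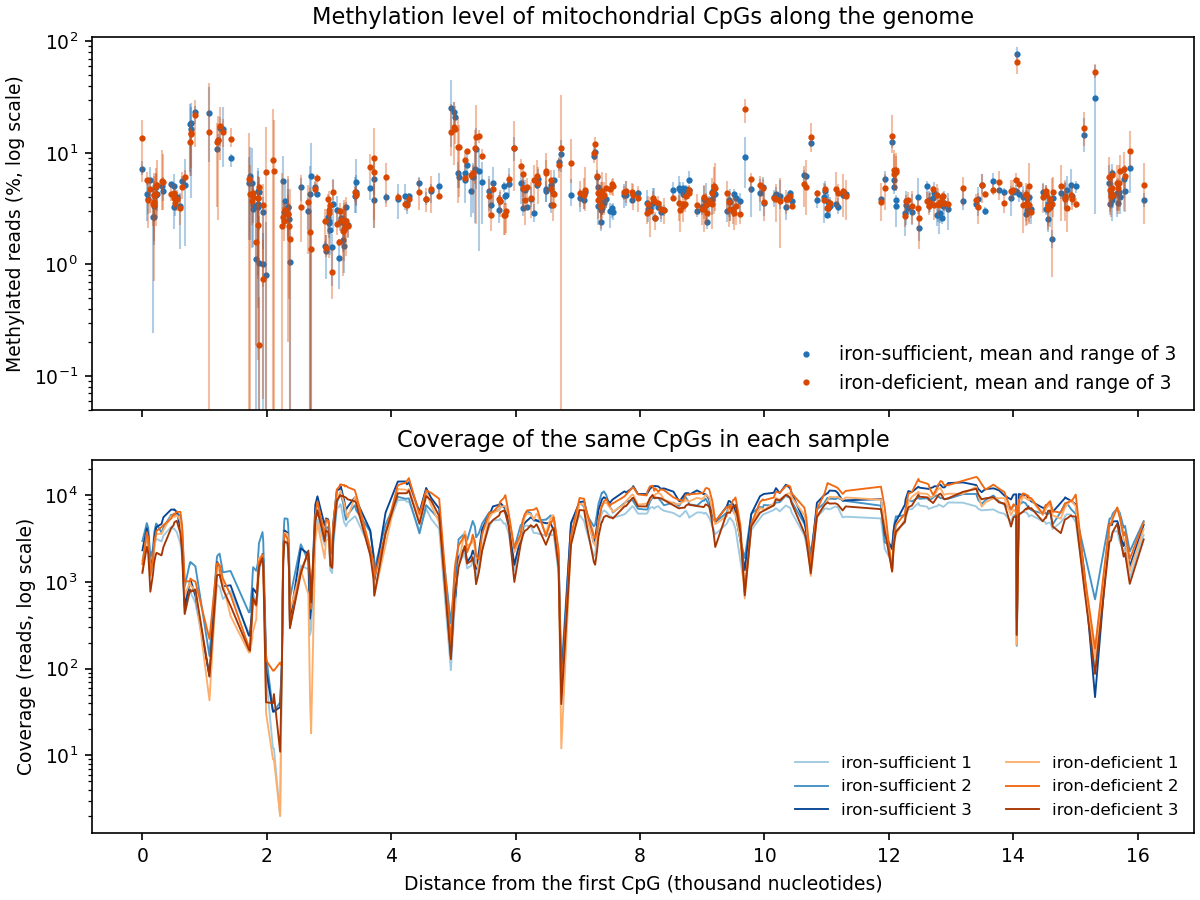
Top, methylation level of each mitochondrial CpG (log scale) against its distance from the first CpG, with points for the group means of 3 rats and lines for their range. Ranges that reach 0 end at the lower edge, and group means of 0 are not drawn. Bottom, coverage of the same CpGs in each of the 6 rats (log scale). Most points lie between 2% and 6%, and 23 of the 25 CpGs with a mean above 10% have a mean coverage under 2000.

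The CpGs above 10% were not spread evenly. They formed 12 runs of consecutive CpGs, of which the longest held 10 CpGs from position 898 to position 1550. The summed level of this run was 16.5%, 9.80% and 19.8% in the iron-sufficient rats 1, 2 and 3 and 7.83%, 19.4% and 18.0% in the iron-deficient rats 1, 2 and 3. A run of 3 CpGs from position 5092 to position 5165 had 21.8%, 15.5% and 29.3% in the iron-sufficient rats 1, 2 and 3 and 11.1%, 13.9% and 24.5% in the iron-deficient rats 1, 2 and 3. In both runs iron-sufficient rat 3 was highest, iron-deficient rat 1 was lowest, and the groups overlapped. The other runs held 1 or 2 CpGs each.

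The highest level was that of position 14188, the only CpG that was read as methylated in most of its reads in every rat. Its level was 73.0%, 88.6% and 68.1% in the iron-sufficient rats 1, 2 and 3 and 50.8%, 78.9% and 68.3% in the iron-deficient rats 1, 2 and 3. It was also far less covered than its neighbours. It had 189, 184 and 367 reads in the iron-sufficient rats and 189, 246 and 246 reads in the iron-deficient rats, a mean of 237. The neighbour at position 14180, 8 nucleotides away, had a mean of 7270 reads and a level of 5.12%, and the neighbour at position 14222 had a mean of 7731 reads and a level of 4.78%. Coverage thus changed by 30.7 times over 8 nucleotides, a distance much shorter than a read. The number of methylated reads changed less, from a mean of 366.7 at position 14180 to 168.2 at position 14188. The cause of this drop was not tested. Whether these rats carry the rn4 sequence at position 14188 was not tested either, so its level is the share of the counted reads that were read as methylated and not an established methylation level.

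Position 15447 had the next highest mean level, 42.1%, and the largest spread between rats. It was 28.3%, 2.85% and 61.7% in the iron-sufficient rats 1, 2 and 3, with coverages of 99, 632 and 47. It was 47.1%, 49.7% and 63.2% in the iron-deficient rats 1, 2 and 3, with coverages of 136, 171 and 87. The rat with the most reads at this position, iron-sufficient rat 2, had the lowest level, and the 2 rats with the fewest reads had the highest. Expressed as methylated reads, the values were 28, 18 and 29 in the iron-sufficient and 64, 85 and 55 in the iron-deficient rats.

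The remaining 3 of the 5 highest CpGs lay in the runs described above. Position 985 had 26.6%, 18.3% and 25.3% in the iron-sufficient rats 1, 2 and 3 and 11.2%, 25.2% and 29.8% in the iron-deficient rats 1, 2 and 3. Position 5147 had 26.2%, 15.1% and 28.6% in the iron-sufficient and 7.86%, 14.3% and 28.9% in the iron-deficient rats, and position 5092 had 18.8%, 11.4% and 45.1% in the iron-sufficient and 9.52%, 27.3% and 9.30% in the iron-deficient rats. All 3 overlapped between the groups, and their mean coverages of 904, 772 and 181 reads were well below the chromosome's mean.

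The 3 lowest CpGs lay between positions 2002 and 2347. Position 2347 had no methylated read in any rat, and it was also the CpG of lowest coverage, with 2, 41 and 36 reads in the iron-sufficient rats 1, 2 and 3 and 2, 118 and 11 reads in the iron-deficient rats 1, 2 and 3. If its 210 reads in all were independent and shared the same level, they would allow a level of up to 1.43% (3 reads). Since 118 of them came from iron-deficient rat 2 and PCR copies may be included, this is no bound for each rat. Position 2002 had 2.70%, 0% and 0.377% in the iron-sufficient and 0%, 0.0640% and 0.509% in the iron-deficient rats, from 1149 to 2446 reads each. Position 2076 had 1.08%, 0.0342% and 1.93% in the iron-sufficient and 0.0623%, 0.498% and 1.65% in the iron-deficient rats, from 1519 to 2927 reads each. Positions 2121, 2232 and 2247 lay in the same dip of coverage, with means of 87, 37 and 38 reads, and had mean levels of 3.78%, 4.34% and 3.44%, near the median of the chromosome. These means came mostly from iron-deficient rat 3, with 17.1%, 25.0% and 19.6%, while no other rat was above 3.23%. Low coverage thus did not always stand beside a high level.

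Level and coverage were related over the chromosome as a whole. The 97 CpGs with a mean coverage of at least 8000 had a median level of 3.71% and none was above 5.21%. The 105 CpGs from 4000 to 8000 had a median of 4.19%, the 42 CpGs from 2000 to 4000 had 5.37%, and the 30 CpGs from 1000 to 2000 had 8.42%. The median was thus higher in each less covered class down to 1000 reads. Below that, the 11 CpGs from 500 to 1000 had a median of 7.46% and the 15 CpGs under 500 had 4.50%, with a range from 0% to 71.3%. Of the 25 CpGs above 10%, 23 had a mean coverage under 2000, and 56 of the 300 CpGs had one. The 174 CpGs with a mean coverage of at least 5000 ranged only from 1.38% to 5.79%, and the most covered of them, position 13538 with a mean of 11999 reads, had 3.91%, 3.38% and 3.15% in the iron-sufficient and 3.75%, 3.31% and 4.32% in the iron-deficient rats.

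The relation of level to coverage differed in strength between rats. The values in this paragraph are for all 300 CpGs, including the 3 with a coverage below 10 in at least 1 rat. Spearman's correlation over CpGs between coverage and level was -0.409, -0.0592 and -0.316 in the iron-sufficient rats 1, 2 and 3 and -0.114, -0.322 and -0.523 in the iron-deficient rats 1, 2 and 3. It was negative in each and weakest in iron-sufficient rat 2. That rat had the highest coverage at its less covered CpGs, a 10th percentile of 1687 reads compared with 839.8 to 1229 in the other rats, and the fewest CpGs above 10%, 13 compared with 15 to 35. The coverage enters the level as its denominator, and neighbouring CpGs share reads, so these correlations are descriptions.

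**Figure D3:**
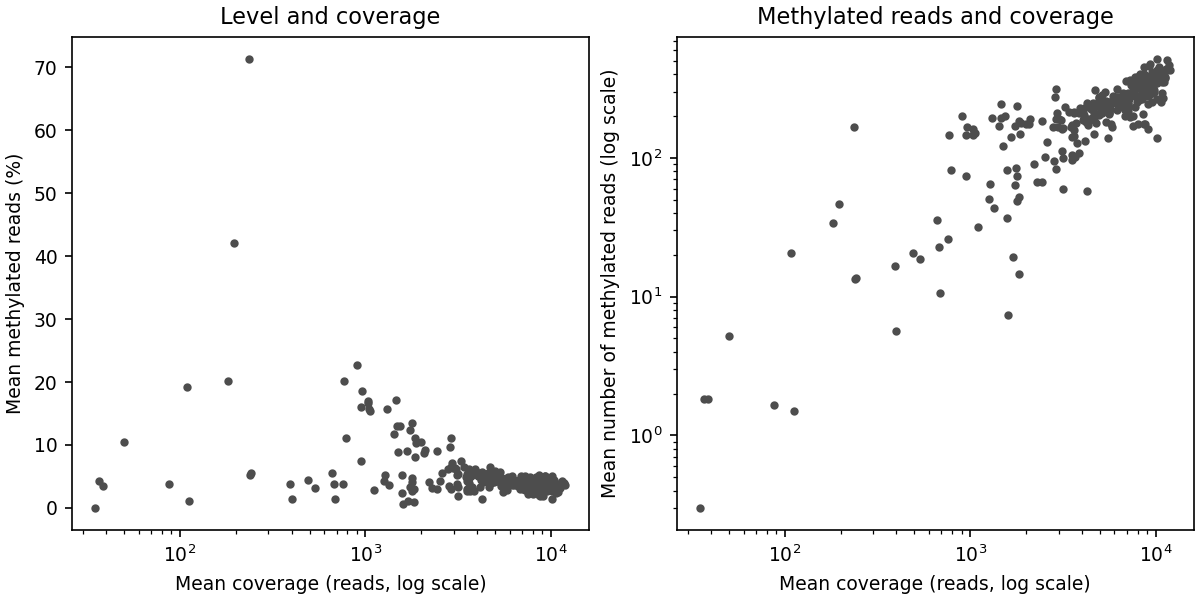
Each point is a mitochondrial CpG, as the mean of 6 rats. Left, methylation level against coverage (log scale). Right, number of methylated reads against coverage (both log scales), where the CpG without a methylated read is drawn at the lower edge. Of the 25 levels above 10%, 23 are under 2000 reads, and methylated reads increase with coverage from a median of 13.3 under 500 reads to 350.0 from 8000 reads.

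The profile along the chromosome was partly shared by the rats. The rank order of coverage was nearly the same in all rats, with Spearman's correlations over CpGs of 0.944 to 0.987 for the 6 pairs of rats within a group and of 0.901 to 0.963 for the 9 pairs between groups. The rank order of the level was less so, with 0.385 to 0.565 within and 0.313 to 0.643 between groups. Rats of the same group were thus no more alike in level than rats of different groups. Neighbouring CpGs had like levels at all distances examined. For neighbours 1 to 20 nucleotides apart, which often lie on the same reads, Spearman's correlation of the mean level was 0.676 (101 pairs), and it was 0.662 for 21 to 50 nucleotides (93 pairs), 0.495 for 51 to 150 nucleotides (80 pairs) and 0.520 beyond 150 nucleotides (22 pairs).

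Each CpG was then tested for a difference with iron status, using a quasi-binomial model of its methylated and unmethylated reads, adjusted over the whole genome. None of the 297 mitochondrial CpGs had an adjusted p-value of at most 0.05, and the smallest was 0.533. In this test 0 of 4240489 CpGs of the whole genome were called (0%), so a count of 0 says nothing particular about the mitochondrial ones. An unadjusted p-value under 0.05 was found for 10 mitochondrial CpGs (3.37%, 9 higher and 1 lower in iron deficiency) and for 9.37% of all CpGs tested (5.08% higher and 4.29% lower). The excess of higher over lower mitochondrial CpGs was lost without iron-deficient rat 3 (3 higher and 3 lower, 2.02%, 9.08% of all CpGs). Over all CpGs it was lost without iron-deficient rat 3 (183122 higher and 185983 lower), 1 (172854 and 192116) or 2 (132020 and 177856). Without iron-sufficient rat 2 it was lost at mitochondrial CpGs (3 higher and 4 lower, 2.36%). It was kept there over all CpGs (212101 higher and 126618 lower, 8.13%). It was kept in both without iron-sufficient rat 1 (7 higher and 2 lower mitochondrial CpGs, 3.03%, 9.58% of all CpGs). The same held without iron-sufficient rat 3 (6 higher and 2 lower, 2.69%, 7.97% of all CpGs). Without iron-deficient rat 1 there were 22 higher and 2 lower (8.11% of the mitochondrial and 8.92% of all CpGs), and without iron-deficient rat 2 there were 4 higher and 0 lower (1.35% and 7.48%). With limma on log2 ratios of the counts, 0 mitochondrial CpGs passed the adjusted threshold and 47 (15.8%) had an unadjusted p-value under 0.05, compared with 4.58% of all CpGs. In the quasi-binomial model without a trend of the dispersion with coverage, 26 mitochondrial CpGs (8.75%, 19 higher and 7 lower) were under 0.05, compared with 9.38% of all CpGs. The excess or lack of small p-values at mitochondrial CpGs thus depended on the test and its settings.

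At single CpGs the median SD between replicates was 1.16 percentage points, and the median binomial standard error was 0.252 percentage points. At this coverage, which may include PCR copies, counting error is small by construction, and the ratio of these values shows nothing particular about the rats. The median dispersion, the factor by which the variance between replicates exceeds the binomial one, was 19.1 at mitochondrial CpGs and 9.22 at all CpGs tested. This factor grows with coverage, which was far higher at mitochondrial CpGs, so the values do not compare the variability between rats. The median SD was 6.49 percentage points at CpGs under 500 reads and 0.794 percentage points at CpGs with at least 8000.

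Most differences between the group means were small. Of the 297 CpGs, 173 were higher and 124 lower in iron deficiency, with a median difference of 0.202 percentage points (quartiles -0.448 and 0.945). The difference was within 1 percentage point for 194 CpGs and within 2 percentage points for 256. It was over 5 percentage points for 11 CpGs, of which 9 had a mean coverage under 2000. The largest were at position 15447 (22.4 percentage points higher in iron deficiency) and position 9816 (15.6 percentage points higher), followed by position 14188, with a difference of -10.6 percentage points (iron-deficient minus iron-sufficient). The groups overlapped at positions 15447 and 14188, and they did not overlap at position 9816.

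The levels of the groups did not overlap at 26 of the 297 CpGs (8.75%), compared with 5.11% of all CpGs of the genome with the same minimum coverage. Since coverage was far lower at nuclear CpGs, no excess at mitochondrial CpGs is read from these shares. They were higher in iron deficiency at 19 (6.40%, 2.68% of all CpGs) and lower at 7 (2.36%, 2.43% of all CpGs). Since close CpGs share reads, the 26 are not independent, and they formed 21 runs of consecutive CpGs with 1 direction. After the median of each rat was subtracted, the groups again did not overlap at 26 CpGs, of which 15 were among those found before. The share over all CpGs after this subtraction was not computed, so this count has no background beside it. With 3 against 3, no single CpG can pass 0.05 by permutation, and none of the 26 passed the adjusted threshold of the quasi-binomial model.

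Of the 3 largest increases without overlap, position 9816 was read as methylated in 8.56%, 4.87% and 13.9% of reads in the iron-sufficient rats 1, 2 and 3. In the iron-deficient rats 1, 2 and 3 it was 30.6%, 18.5% and 25.0%, and every iron-deficient rat was above every iron-sufficient one. The group means were 9.12% ± 4.56 and 24.7% ± 6.01 (SD, n = 3 each), with a quasi-binomial adjusted p-value of 0.533 (0.00529 before adjustment). Coverage there was 853, 1891 and 1371 in the iron-sufficient and 648, 771 and 704 in the iron-deficient rats, so that it also did not overlap between the groups and was lower where the level was higher. Methylated reads were 73, 92 and 191 in the iron-sufficient and 198, 143 and 176 in the iron-deficient rats, which overlapped. The part of coverage in the difference was not tested. The neighbouring CpGs at positions 9747 and 9921 had differences of -0.860 and 1.09 percentage points and overlapped between the groups.

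The other increases were smaller. Position 5542 had 8.75%, 1.31% and 10.4% in the iron-sufficient rats 1, 2 and 3 and 14.2%, 12.4% and 15.9% in the iron-deficient rats 1, 2 and 3, a difference of 7.32 percentage points. Its coverage was 1658, 3665 and 2244 in the iron-sufficient and 1354, 1827 and 1302 in the iron-deficient rats. Position 1550 had 7.47%, 9.53% and 9.80% in the iron-sufficient and 11.3%, 11.5% and 16.9% in the iron-deficient rats, a difference of 4.31 percentage points, with coverages of 790, 1343 and 918 and of 406, 712 and 533. At both CpGs the rat with the highest coverage was iron-sufficient rat 2, and at position 1550 the coverages of the groups did not overlap either. Both had a quasi-binomial p-value above the adjusted threshold, with 0.0388 and 0.156 before adjustment.

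The 3 largest decreases without overlap were at well covered CpGs. Position 5945 had 4.45%, 5.26% and 5.46% in the iron-sufficient rats 1, 2 and 3 and 2.98%, 1.83% and 3.55% in the iron-deficient rats 1, 2 and 3, from a mean of 7192 reads. The difference was -2.27 percentage points, with a quasi-binomial adjusted p-value of 0.533 (0.0189 before adjustment). Position 8770 had 4.18%, 5.48% and 4.29% in the iron-sufficient and 4.14%, 1.96% and 3.13% in the iron-deficient rats, and here iron-sufficient rat 1 and iron-deficient rat 1 nearly touched. Position 15137 had 4.99%, 4.41% and 5.61% in the iron-sufficient and 3.28%, 3.23% and 3.91% in the iron-deficient rats, a difference of -1.53 percentage points. Among the 174 CpGs with a mean coverage of at least 5000, the largest difference was 2.90 percentage points.

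**Figure D4:**
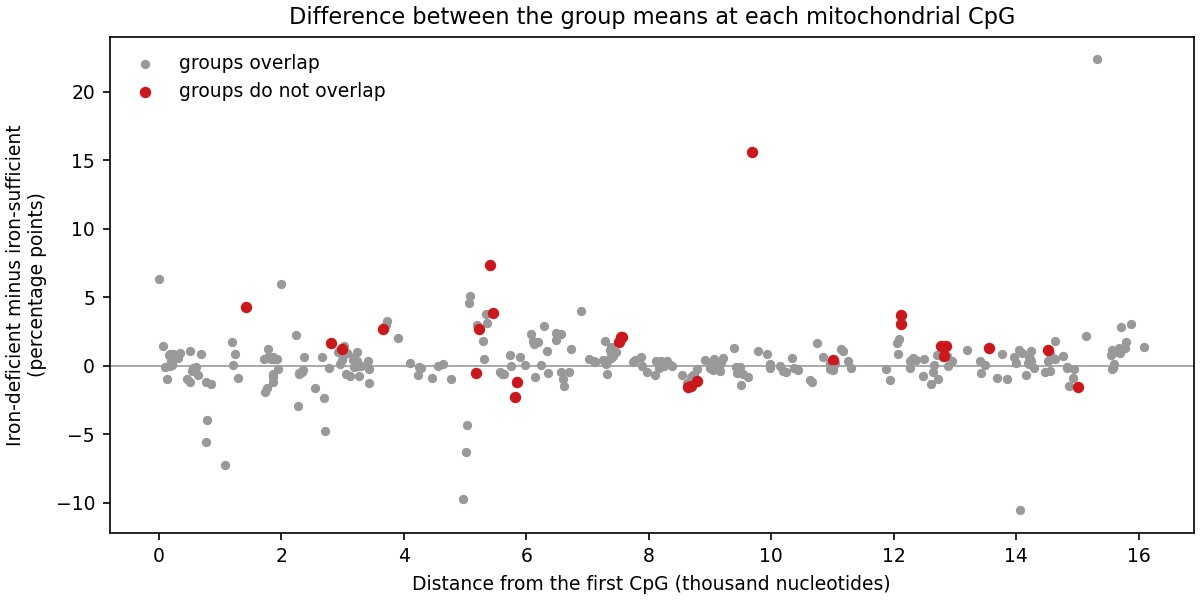
Difference between the group means (iron-deficient minus iron-sufficient, percentage points) at each of the 297 mitochondrial CpGs that reached a coverage of 10 in every rat, against the distance from the first CpG. Red points are the 26 CpGs whose groups do not overlap. Most points lie within 2 percentage points of 0, and none passed the adjusted threshold.

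Single rats, rather than groups, stood out along the chromosome. Iron-deficient rat 3 had the highest level of the 6 rats at 118 of the 297 CpGs (39.7%) and the lowest at 5. Iron-deficient rat 1 had the lowest level at 101 CpGs (34.0%) and the highest at 14. Both belonged to the same group and lay on opposite sides of the other rats. In the 17 windows of 1000 nucleotides, iron-deficient rat 3 was highest in 13 and iron-deficient rat 1 lowest in 11. The mean was higher in iron deficiency in 12 of the 17 windows, but the groups overlapped in all 17.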

How the data were processed

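WGBS was analysed in hippocampi of 3 iron-sufficient and 3 iron-deficient rats, grouped and numbered by their labels. The authors removed adapters, mapped to rn4 with BS Seeker version 1, took read 1 where paired reads overlapped and merged both strands of each CpG. The submitters' processing notes also name bcl2fastq. For each CpG the authors deposited a methylated fraction and a read count, its coverage, neither normalized nor pooled. The sources used here do not state whether duplicate reads were removed.

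Methylated counts were fraction times coverage, within 0.01 of a whole number at every mitochondrial CpG. Levels per rat summed the counts over CpGs that reached a coverage of 10 in all rats, and groups were compared by exact permutation tests. The quasi-binomial logistic model with dispersions moderated by limma 3.58.1 (squeezeVar, R 4.3.3, trend with coverage) was fitted to all 4240489 CpGs with that coverage and with reads of both kinds in the fit, adjusted by Benjamini-Hochberg and tested on simulated data. Other values were computed with Python 3.11.15, numpy 2.4.6, scipy 1.17.1 and pandas 2.3.3. The alternatives varied the summary over CpGs, the coverage minimum, the test, the tile definition, the denominator of the coverage ratio, the replicate block and the rats included.

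The positions named were the 5 highest and 3 lowest in mean level, those of highest and lowest coverage, and, without overlap between the groups, the 3 largest increases and decreases. CpGs near positions 14188, 9816 and 2347 and the runs above 10% were named after their values were seen. The members and lists were chosen with earlier results of these data known.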

Additional observations from a re-analysis of the deposited data

How the results depend on the processing

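The difference of the mitochondrial level between the groups, 0.153 percentage points, ranged from -0.212 to 0.471 when each rat was left out in turn, and the value of -0.212 without iron-deficient replicate 3 was the only change of direction among 14 alternatives. Its p-values ranged from 0.200 to 1.00. The difference of the log2 coverage ratio ranged from -0.161 to 0.0902 and changed direction without iron-sufficient replicate 2 (0.0902) or 3 (0.00112) and without iron-deficient replicate 1 (0.0734) or 2 (0.0659). The difference from CpG-dense tiles ranged from 1.44 to 1.60 and that from all nuclear CpGs from -58.5 to -58.1 with 1 rat left out, where 5 samples cannot give an exact p below 0.0625. Tiles with at least 30 or 70 CpGs gave 1.33 and 1.54. The number of mitochondrial CpGs past the adjusted threshold was 0 in all 11 alternatives, with 4 (1.35%, 7.48% of all CpGs, without iron-deficient replicate 2) to 67 (22.6%, 4.72% of all CpGs, limma with the replicate block) at an unadjusted p under 0.05, and in limma 1 CpG of the whole genome passed. No pairing by replicate number was seen, which does not exclude one. The deviations of same-numbered rats correlated at -0.00519, 0.00506 and -0.0175 over all CpGs. Over mitochondrial CpGs they correlated at -0.198, -0.00809 and -0.0529, and those of rats with unlike numbers at -0.125 to 0.252. The replicate block cannot change the differences of 0.153 and -0.00709, since both groups hold the same replicate numbers. With it the exact p was 1.00 for each, where 0.25 is the smallest that 3 pairs can give, and limma with the block called 0 CpGs. At CpGs under 500 reads, low depth and the spread between rats (median SD between replicates 6.49 percentage points) both limit what a difference could show. With groups of 3, no rat could be tested as an outlier.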
